A study of Drosophila melanogaster with 60 samples.

Results

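The fruitless gene (fru) and the genes beside it on chromosome 3R were described from every peak that overlapped 3R:18415868-18582441 in the tables of 2 antibodies. Given this window, every peak in it was taken whatever its change: 13 of 14894 H3K4me3 peaks and 22 of 21113 RNAPolII peaks, 35 of 36007 in all. They lay over 6 genes, fru, CG7691, CG43210, hemo, CG7694 and fray, or between genes. The bounds of the window were drawn with earlier results of these data known, and its upper bound is the end of the last RNAPolII peak that passed the test in fru mutants, so the counts below describe the window and do not show its limits independently. Coordinates follow the deposited tables, for which no source used here names a genome build. Whether a peak lies in an exon, an intron or a UTR was not assessed.

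The fru gene encodes BTB zinc finger transcription factors. Transcripts from its most distal promoter, P1, are spliced differently in the sexes by Transformer and Transformer-2, and the male-specific proteins made from them act in neurons of the male brain that serve courtship. Reading runs from the upper-coordinate end of fru towards the lower one, so the distal promoter lies at the upper end, and several further promoters lie downstream. H3K4me3 is a histone methylation typical of promoters in use, and RNAPolII is the polymerase that transcribes them. Among the neighbours, fray encodes a Ste20-family kinase of the WNK pathway that is needed for glia to ensheath axons, hemo encodes hemotin, a small protein that acts in the maturation of endosomes in blood cells, and CG7694 is predicted to encode a RING-type ubiquitin ligase.

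CUT&RUN, in which an antibody brings a nuclease to chromatin and the DNA it frees is sequenced, was done on pooled brains of male flies, 15 brains for each H3K4me3 library and 30 for each RNAPolII library. The 60 libraries covered 5 genotypes kept in a group (GH) or alone (SH), with 3 biological replicates each, so a genotype had 6 libraries per antibody. CS was the Canton-S wild type. Or47b mutants (w+/Y; Or47b2/3;+/+) and Or67d mutants (w+/Y; +/+; Or67dGAL4/GAL4) lack pheromone receptors of olfactory neurons, and dsx mutants (w-/Y; +/+; dsxf00683-d07058/f01649-d09625) are altered in doublesex, the other sex-specific regulator downstream of Transformer. The fru mutants (w+/Y; +/+; fruLexA/4-40) had different fru alleles on their chromosomes: fruLexA is known as an insertion of the LexA coding sequence into fru, and fru4-40 as a deletion at the locus. The DNA copy number of the window was not measured in these libraries. The strain background differed along with the genotype, and the dsx flies alone were w-, so the effect of an allele and that of its background cannot be told apart. In pools of whole brains, fewer cells with a signal and less signal per cell cannot be told apart either.

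Recovered reads in peaks ranged from 2309386 to 9269525 per H3K4me3 library and from 3007711 to 6459322 per RNAPolII library, with medians of 4004688 and 3602328.5. The tissue was checked with markers: per kb of peak, mean H3K4me3 signal over the synaptic genes nSyb, Syt1 and brp was 894, 451 and 454, against 16.6 over the yolk protein gene Yp1, 26.8 over the photoreceptor opsin ninaE, and 26.9 and 31.3 over the muscle genes Prm and Act88F. The neuronal gene elav, at 24.9, lay among these low values. Over the glial genes moody and alrm, H3K4me3 was 38.6 and 38.5 per kb. No H3K4me3 peak lay over the glial gene repo or the fat body gene Lsp2. RNAPolII over repo, moody and alrm was 68.5, 58.5 and 42.7 per kb. RNAPolII peaks, some of which span several genes, lay over elav, nSyb, brp and Syt1 with 178, 105, 164 and 90.1 per kb, and also over Lsp2, Act88F, Yp1 and Prm with 81.4, 49.2, 41.9 and 37.5. Of 12 marker genes of neurons, glia and tissues outside the brain, those with a tested peak numbered 10 with H3K4me3 and 11 with RNAPolII. Each gene was judged by its peak of highest mean. None of these peaks was called in fru minus CS, and their log2 changes ranged from -0.36 to 0.32 with H3K4me3 and from -0.35 to 0.21 with RNAPolII. Of all tested peaks, 0.944% with H3K4me3 and 0.484% with RNAPolII were called lower in that comparison. No calls among so few genes lies near those shares.

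In fru mutants, RNAPolII signal was lower across the upper part of fru and over the genes above it, at 48.4% to 65.5% of the CS level in the peaks that passed the test. In the lower part of fru no peak passed it. Of 21 RNAPolII peaks tested, 9 fell and none rose (limma on log2 of the value plus 1, adjusted p under 0.05 over all 21076 peaks tested), where 0.484% of all peaks fell. The edgeR and DESeq2 tests on whole reads called 7 and 8 of the 21. Here and below, shares of all peaks called are those of the main limma fit. None is given for edgeR, DESeq2 or the other settings. The median log2 change was -0.25 over the 21 peaks and 0.00 over all peaks tested. The 9 peaks took in 3 over fru, 2 over no gene, the one over CG7691, the one that spans CG43210, hemo, CG7694 and fray, and 2 more over CG7694 and fray. With H3K4me3, 3 of 13 peaks fell and none rose, where 0.944% of all peaks fell, and edgeR and DESeq2 called 3 and 2. Of the H3K4me3 libraries compared, edgeR and DESeq2 left out fru GH 1, fru SH 1 and CS GH 2. The median H3K4me3 change was -0.31 over the 13 peaks and -0.02 over all.

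**Figure D1:**
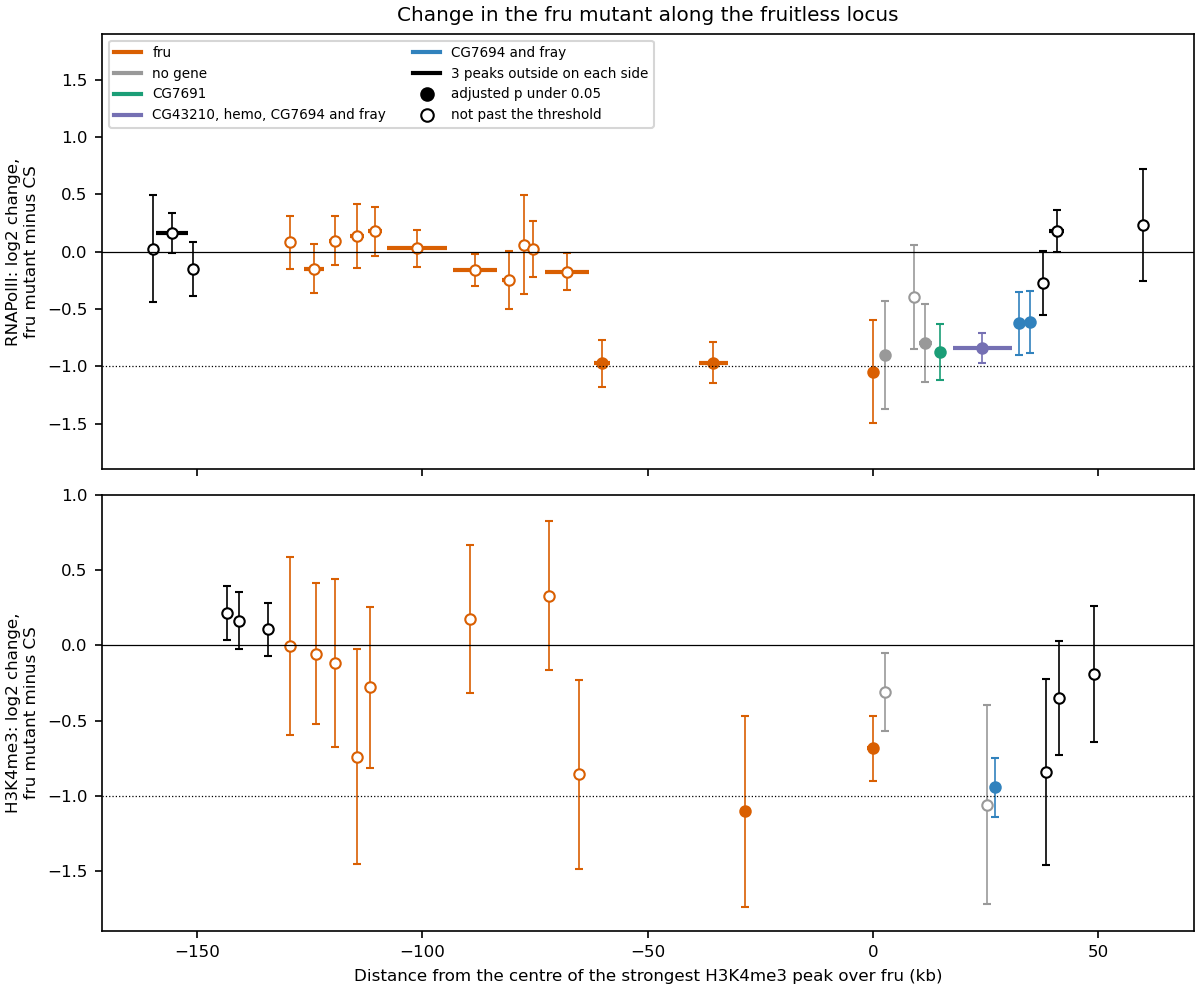
Log2 change, fru minus CS, with its 95% interval for each peak, against the distance in kb of the peak's centre from that of the strongest H3K4me3 peak over fru; colours give the gene, thick bars the peak's width, black the 3 nearest peaks outside on each side, filled points passed the test and the dotted line marks a change of -1. RNAPolII points lie between -0.25 and 0.18 up to -67.9 kb and between -1.05 and -0.39 from -60.1 kb to the end of the window.

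The lower part of fru held 11 RNAPolII peaks, from 18415868 to 18483179, of which limma called none and 2 had an unadjusted p under 0.05. The lowest end of any of their 95% intervals was -0.50, equal to 70.7% of CS, and none of the 11 intervals held a change of -1. The last of them, 3R:18473453-18483179, had values of 339, 369 and 401 (lowest, median and highest of 6 libraries) in CS and 282, 326 and 374 in fru. These ranges overlapped, and the change of -0.18 missed the threshold (adjusted p = 0.398).

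The next peak, 3R:18484274-18487891, begins 1094 bp further on, also over fru. Its lowest, median and highest values were 104, 119 and 128 in CS and 49.9, 57.4 and 76.6 in fru. Every fru library lay below every CS library. The mean fell from 118 ± 8.29 to 60.0 ± 10.2 (SD, n = 6), a log2 change of -0.97 (95% interval -1.18 to -0.77, adjusted p = 1.28e-07).

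Whether neighbouring peaks changed unequally was tested directly, with a comparison chosen after the data were seen: the log2 ratio of each peak to the next one was fitted with limma over all neighbouring pairs of the table. Of 22 RNAPolII pairs that touch the window, 1 passed, where 0.508% of all 20855 pairs did. It was the pair just described. The change of the first peak exceeded that of the second by 0.80 on the log2 scale (95% interval 0.49 to 1.11, adjusted p = 0.00861). Against the mean of the other 4 genotypes, where 0.738% of pairs passed, the same difference was 0.77 (adjusted p = 0.000575). With only the fru and CS libraries in the fit, no RNAPolII pair of the window passed, and this one had an adjusted p of 0.151.

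Further up fru, the peak 3R:18507619-18514006 had values of 220.5, 230.2 and 239.7 in CS and 84.4, 122.9 and 140.7 in fru. The groups lay far apart, with the highest fru library well under the lowest CS library. The log2 change was -0.97 (95% interval -1.15 to -0.79, adjusted p = 6.42e-09).

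At the upper end of fru, where the distal promoter lies, RNAPolII and H3K4me3 peaks coincided. The RNAPolII peak there, 3R:18545132-18547416, was the strongest of the window in CS, with values of 814, 1144 and 1420, and those of fru were 479, 514 and 694. The groups did not overlap, and the mean fell from 1122 ± 214 to 538 ± 79.5 (SD, n = 6). The log2 change was -1.05 (95% interval -1.49 to -0.60, adjusted p = 0.00715); with edgeR on whole reads the adjusted p was 0.134.

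The H3K4me3 peak at the same end, 3R:18544985-18547433, had values of 247, 295 and 357 in CS and 157, 175 and 253 in fru. Here 1 fru library reached into the CS range. The fall of 0.69 on the log2 scale left 62.2% of the CS level, and its interval of -0.90 to -0.47 did not reach -1. For RNAPolII at the same end the interval reached from -1.49 to -0.60. The 2 tables were normalized separately, so the difference between the antibodies was not tested.

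Just beyond the gene, a narrow peak over no gene was present with both antibodies. RNAPolII values at 3R:18548594-18549168 were 353, 444 and 619 in CS and 204.9, 234 and 288 in fru, with no overlap. The log2 change was -0.90 (95% interval -1.37 to -0.43, adjusted p = 0.0454). This call is the least firm of the 9: it was lost in 11 of 12 fits that each left out 1 fru or CS library (adjusted p from 0.0532 to 0.181), kept only without CS SH 3, and edgeR and DESeq2 gave adjusted p of 0.24 and 0.108. H3K4me3 values at 3R:18548585-18549207 were 96.6, 113 and 140 in CS and 74.5, 90.5 and 126 in fru, which overlap. The change of -0.31 (95% interval -0.57 to -0.05) missed the threshold with an adjusted p of 0.242, and its interval did not hold -1.

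**Figure D2:**
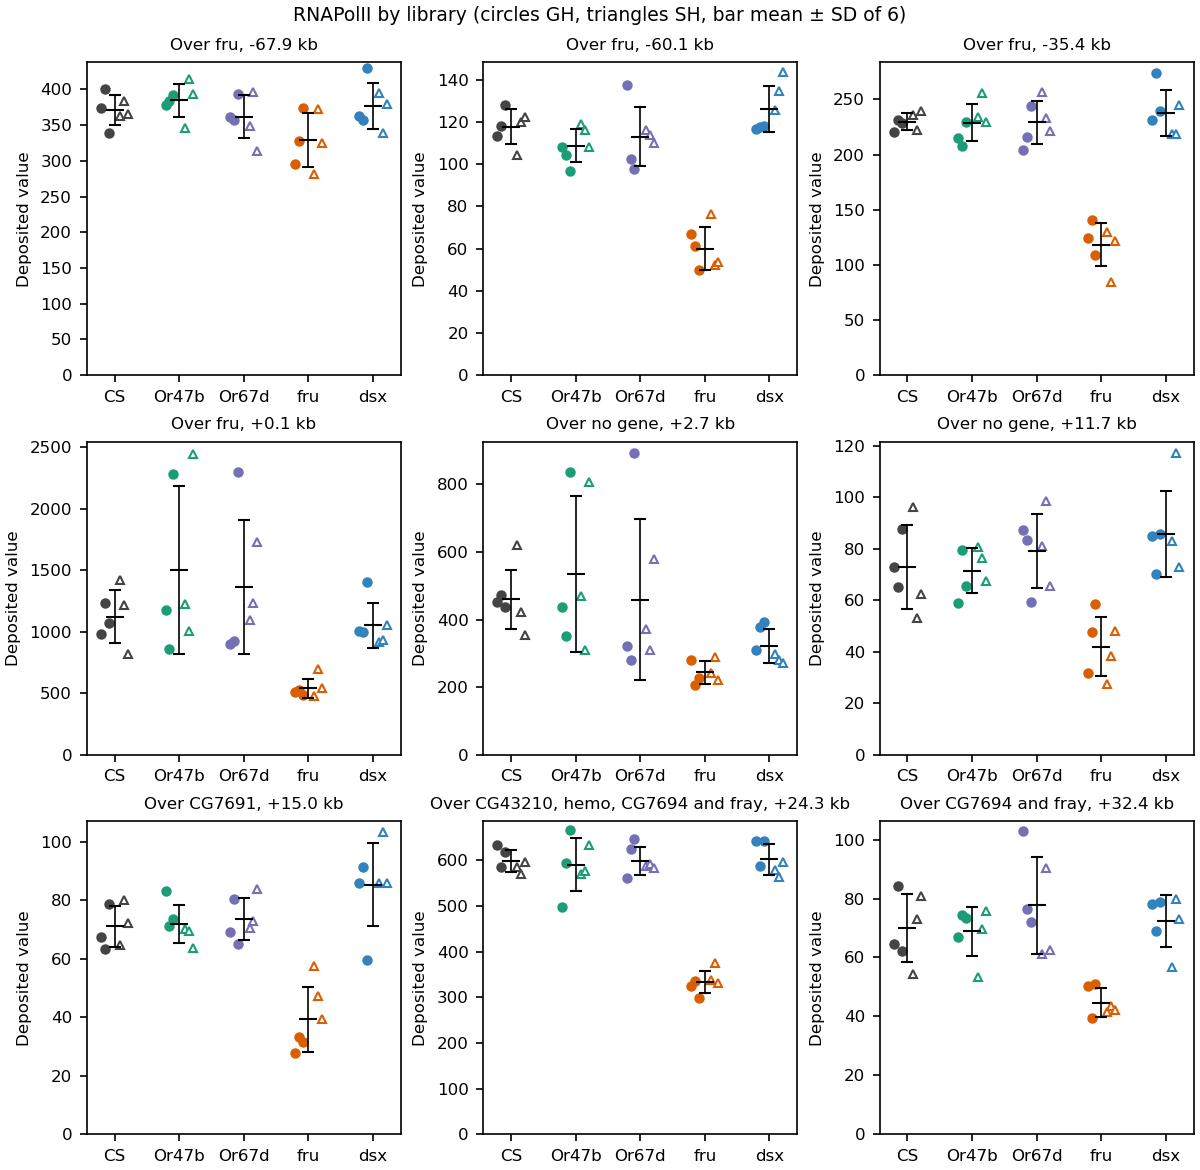
RNAPolII values per library, in deposited units, for 9 peaks named by gene and distance in kb from the strongest H3K4me3 peak over fru; circles are GH and triangles SH libraries of each genotype, and bars the mean ± SD (n = 6). The fru and CS points overlap at -67.9 kb and separate at -60.1 kb.

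Between fru and CG7691 lay 2 wider RNAPolII peaks over no gene. At 3R:18556445-18559278 the values were 53.1, 68.9 and 96.1 in CS and 27.6, 43.0 and 58.6 in fru, and the log2 change was -0.80 (adjusted p = 0.0079). The ranges shared the stretch from 53.1 to 58.6. At 3R:18554829-18555890 the values were 19.0, 25.9 and 37.4 in CS and 11.5, 18.8 and 29.8 in fru, and the change of -0.39 missed the threshold (adjusted p = 0.545).

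The CG7691 peak, 3R:18560145-18562269, had RNAPolII values of 63.2, 69.9 and 80.1 in CS and 27.7, 36.2 and 57.4 in fru. No fru library reached the CS range, and the log2 change was -0.87 (95% interval -1.12 to -0.63, adjusted p = 1.86e-05). No H3K4me3 peak of the table lay over CG7691. The small RNAPolII peak that follows, 3R:18562842-18563066, was the only one of the 35 below the mean of 10 needed for testing, with 4.86 ± 2.43 in CS and 4.38 ± 3.88 in fru.

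The broad RNAPolII peak 3R:18563901-18577105 spans CG43210, hemo, CG7694 and fray, so its signal cannot be assigned to 1 of them. It had the lowest adjusted p of the RNAPolII peaks here. Its values were 571, 591 and 633 in CS and 297.5, 333 and 375 in fru. The groups were separated by more than the width of either, and the mean fell from 598 ± 23.4 to 334 ± 24.9. The log2 change of -0.84 (95% interval -0.98 to -0.71, adjusted p = 2.47e-10) left 55.8% of the CS level, and its interval did not quite reach -1.

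H3K4me3 marked this stretch with 1 strong peak over CG7694 and fray, 3R:18572312-18574432. Its values were 341, 429 and 474 in CS and 181, 212 and 269 in fru. The groups did not overlap. The mean fell from 418 ± 51.4 to 217 ± 28.8, a log2 change of -0.94 (95% interval -1.14 to -0.75, adjusted p = 4.03e-12). A weak H3K4me3 peak just below it, 3R:18571294-18571570 over no gene, had values of 13.1, 16.7 and 19.2 in CS and 2.13, 8.46 and 12.5 in fru, without overlap, and a change of -1.06 that missed the threshold (adjusted p = 0.0743). It passed under 4 of the other settings, among them the replicate block (adjusted p = 0.0315), and without fru SH 1 (adjusted p = 0.0426).

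Towards the upper bound, the RNAPolII changes became smaller. At 3R:18577831-18579463 the values were 54.4, 68.8 and 84.3 in CS and 39.3, 42.8 and 51.0 in fru, a log2 change of -0.63 (adjusted p = 0.00948); without CS GH 2 the adjusted p was 0.0511. At 3R:18579947-18582441 they were 57.1, 76.6 and 95.7 in CS and 41.1, 50.8 and 57.4 in fru, a change of -0.61 (adjusted p = 0.0108). Both peaks lay over CG7694 and fray. Past the window, still over these genes, the changes were -0.27 at 3R:18583001-18584790 (adjusted p = 0.481) and 0.18 at 3R:18585375-18588583 (adjusted p = 0.486). No pair of neighbours at this end passed the test of unequal change: across the upper bound the first peak minus the second was -0.34 (95% interval -0.70 to 0.03, adjusted p = 0.638).

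**Figure D3:**
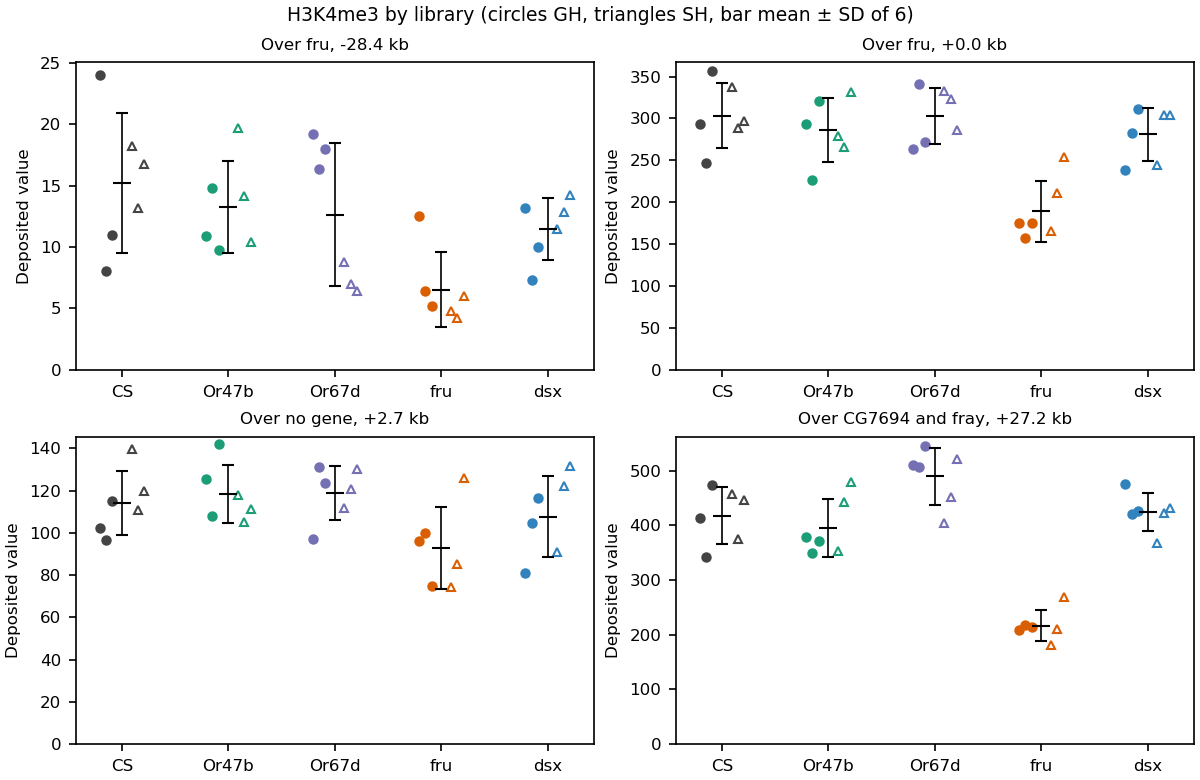
H3K4me3 values per library, in deposited units, for 4 peaks at -28.4, 0.0, 2.7 and 27.2 kb from the centre of the strongest H3K4me3 peak over fru; circles are GH and triangles SH libraries of each genotype, and bars the mean ± SD (n = 6). CS and fru do not overlap at the CG7694 and fray peak at 27.2 kb, where CS lies between 341 and 474 and fru between 181 and 269.

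Over the body of fru, H3K4me3 was low. The 9 H3K4me3 peaks over fru below its upper end had CS means of 15.2 to 27.5, against 303 ± 39.1 at the upper end. Of these 9, 1 fell, 3R:18517537-18517981, with values of 8.05, 14.96 and 24 in CS and 4.25, 5.602 and 12.5 in fru and a change of -1.11 (adjusted p = 0.0414). Its groups overlapped, and the call was lost in 8 of 12 fits without 1 library (adjusted p from 0.0567 to 0.183), kept without CS GH 2, CS GH 3, fru GH 1 or fru SH 1. The changes of the other 8 ranged from -0.86 at 3R:18480747-18481073 to 0.33 at 3R:18473995-18474459, and their adjusted p were 0.154 or higher.

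No neighbouring H3K4me3 pair passed among the 14 that touch the window, where 1.4% of all pairs passed (3 had an unadjusted p under 0.05); against the other genotypes the share over all pairs was 1.56%. When only peaks with a mean of at least 50 were paired, skipping the weaker peaks between them, 4 of 4 pairs passed. The share of all such pairs that passed is not given here, so this count has no background to be read against. From the peak over CG31122 and CG10864 below the window to the upper end of fru, the change differed by 0.79 (adjusted p = 4.79e-06). Between the upper end of fru and the narrow peak beyond it the difference was -0.38 (adjusted p = 0.00939), a smaller fall at the narrow peak. With all tested peaks paired, this same pair had the same difference but missed the threshold in limma (adjusted p = 0.101). Among peaks with a mean of at least 50, the difference from the narrow peak to the CG7694 and fray peak was 0.63 (adjusted p = 0.000465). From that peak to the next one past the window it was -0.89 (adjusted p = 9.04e-10).

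A change of -1, a halving, lay within the 95% interval of 6 of the 9 called RNAPolII peaks, all but the broad peak over 4 genes and both peaks over CG7694 and fray above it. It lay within that of 2 of the 3 called H3K4me3 peaks, all but the one at the upper end of fru. Every fru library lay below every CS library at 7 of 22 RNAPolII peaks, where 0.887% of tested peaks did so, and at 2 of 13 H3K4me3 peaks, where 0.696% did.

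The level per length differed along the locus. In CS, RNAPolII signal per kb of peak was 799 at the narrow peak beyond fru and 491 at the upper end of fru. All other RNAPolII peaks of the window had 21.6 to 56.8 per kb. In fru mutants the values at the narrow peak and the upper end were 424 and 235 per kb, still the highest of the window. For H3K4me3 in CS the level per kb was 197 at the CG7694 and fray peak, 183 at the narrow peak and 124 at the upper end of fru, and 32.2 to 69.98 elsewhere.

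**Figure D4:**
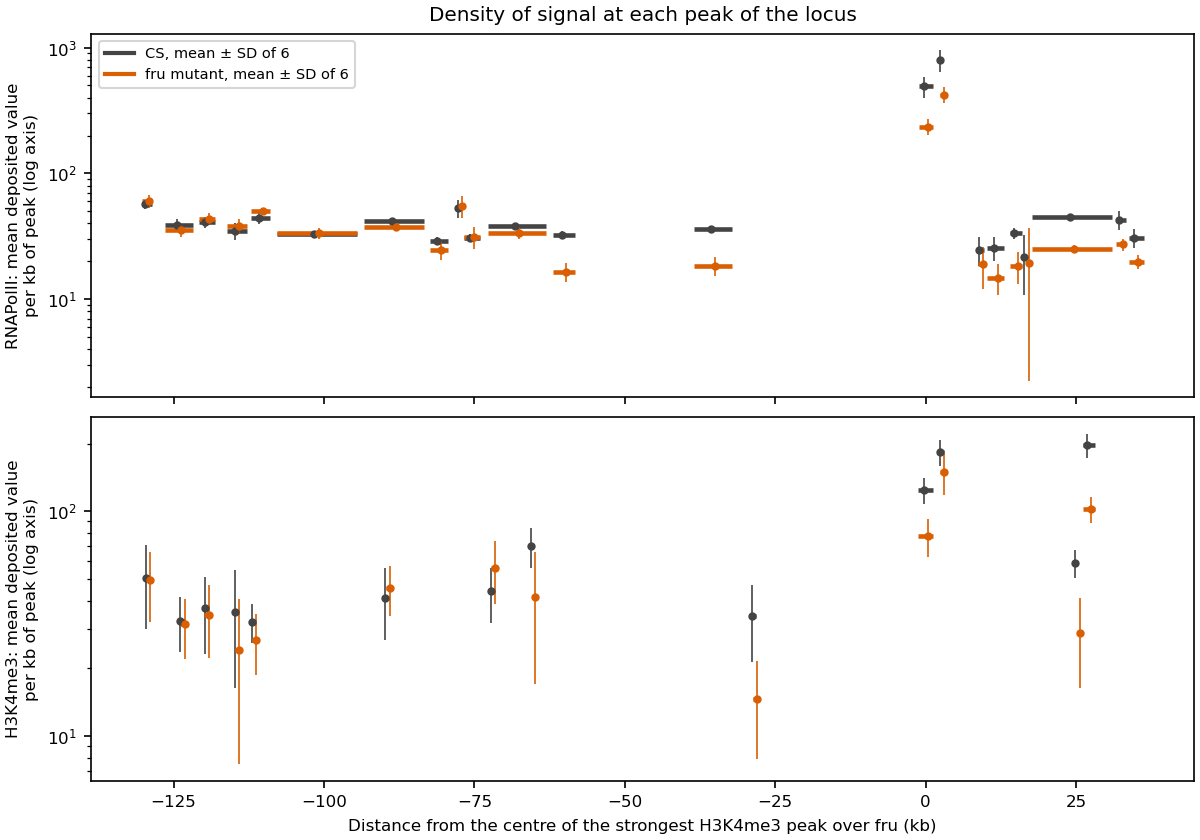
Mean signal per kb of peak (± SD, n = 6) in CS and fru on a log axis, against distance in kb from the centre of the strongest H3K4me3 peak over fru, for both antibodies. RNAPolII reaches 799 per kb in CS and 424 in fru at the narrow peak 2.7 kb above the centre.

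The comparison of fru with the mean of the other 4 genotypes shares both the fru and the CS libraries with the comparison to CS. In it, 10 of 21 RNAPolII peaks fell, where 0.565% of all peaks did, and edgeR and DESeq2 called 8 and 9. The additional one was 3R:18554829-18555890, with a change of -0.69 (adjusted p = 0.0375), lost in 15 of 30 fits without 1 library. Just outside the window, 3R:18583001-18584790 also fell in this comparison, by 0.47 on the log2 scale (adjusted p = 0.0163). With H3K4me3, 3 of 13 fell, where 1.47% of all did, and edgeR and DESeq2 called 2 each, with changes of -0.91 at 18517537 (adjusted p = 0.0264), -0.64 at the upper end of fru (adjusted p = 2.35e-08) and -0.99 at the CG7694 and fray peak (adjusted p = 7.09e-18). The call at 18517537 was lost with edgeR and DESeq2 (adjusted p = 0.0682 and 0.088) and in 4 fits without 1 fru library, GH 2, GH 3, SH 1 or SH 2 (adjusted p from 0.0737 to 0.143).

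The mean was lowest in fru at each of the peaks described in this paragraph and the next, though not at every peak of the window. At 3R:18438329-18451606 over the lower part of fru, mean RNAPolII signal was lowest in CS, at 438, against 447 in fru. At the broad peak over CG43210, hemo, CG7694 and fray, mean RNAPolII signal was 602 ± 33.4 in dsx, 599 ± 31.1 in Or67d, 598 ± 23.4 in CS, 590 ± 57.7 in Or47b and 334 ± 24.9 in fru (SD, n = 6). The first 4 differed by less than their spread. For H3K4me3 at the upper end of fru the means were 303 ± 39.1 in CS, 303 ± 33.5 in Or67d, 286 ± 38.2 in Or47b, 281 ± 32.0 in dsx and 190 ± 36.4 in fru, and again neighbours among the first 4 differed by less than their spread. At the CG7694 and fray peak H3K4me3 was 489 ± 52.0 in Or67d, 424 ± 34.5 in dsx, 418 ± 51.4 in CS, 396 ± 52.9 in Or47b and 217 ± 28.8 in fru. Or67d stood above the others there by more than 1 SD, and its change of 0.23 from CS missed the threshold (adjusted p = 0.064). It passed under the replicate block (adjusted p = 0.022), among peaks with a mean of at least 50 (adjusted p = 0.0378), and without CS GH 3 or Or67d SH 1 (adjusted p = 0.0196 and 0.0353).

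RNAPolII at the upper end of fru was more variable, with means of 1499 ± 684 in Or47b, 1362 ± 546 in Or67d, 1122 ± 214 in CS, 1051 ± 181 in dsx and 538 ± 79.5 in fru. Libraries Or47b GH 3, Or47b SH 3 and Or67d GH 3 reached 2284, 2444 and 2295, and Or67d SH 3 reached 1724. The first 3 of these were also high at the narrow peak beyond fru, with 835, 807 and 892. Over the 24 libraries of the other genotypes, the coefficient of variation was 37.1% at the upper end and 40.5% at the narrow peak, against 6.08% to 26.0% at the other tested RNAPolII peaks of the window. The signals of the upper end and the narrow peak had a Pearson correlation of 0.888 across these 24 libraries, which share depth and scaling. Without these 3 libraries, all 9 RNAPolII calls in fru minus CS remained, and the adjusted p at the upper end was 6.43e-11. The 3 libraries were the highest at this peak and belong to neither group compared. Leaving them out kept the change as it was and altered only the estimate of spread. This lower adjusted p is therefore no added support for the fall.

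In the other mutants 1 peak of the locus was called in all. With RNAPolII, limma called 0 of 21 peaks in Or47b, Or67d and dsx minus CS, where 0.56%, 1.08% and 1.84% of all peaks passed in either direction. Unadjusted p under 0.05 numbered 1, 0 and 4, and edgeR and DESeq2 called none either. The lowest change was -0.51 in dsx, at the narrow peak beyond fru (adjusted p = 0.271). A fit of dsx and CS libraries alone, and one without the 3 highest libraries named above, called it (adjusted p = 0.000304 and 0.00262). Both fits left the change at -0.51 and altered only the estimate of spread. With H3K4me3 limma called 0 of 13 in Or47b and dsx, where 0.806% and 5.4% of all peaks passed, with 1 unadjusted p under 0.05 in each and none called by edgeR or DESeq2.

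In Or67d mutants 1 of 13 H3K4me3 peaks fell, a share below the 12.5% of all peaks that fell in this comparison. It was 3R:18434245-18434952 over fru, with values of 18.3, 21.6 and 30.4 in CS and 5.85, 13.2 and 17.7 in Or67d, without overlap, and a change of -0.87 (adjusted p = 0.0132). Without Or67d SH 2 the adjusted p was 0.0663. The test of the difference between fru and the mean of the other genotypes, above, takes in CS along with Or47b, Or67d and dsx. Neither fru against these mutants without CS nor any pair of mutants was tested.

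**Figure D5:**
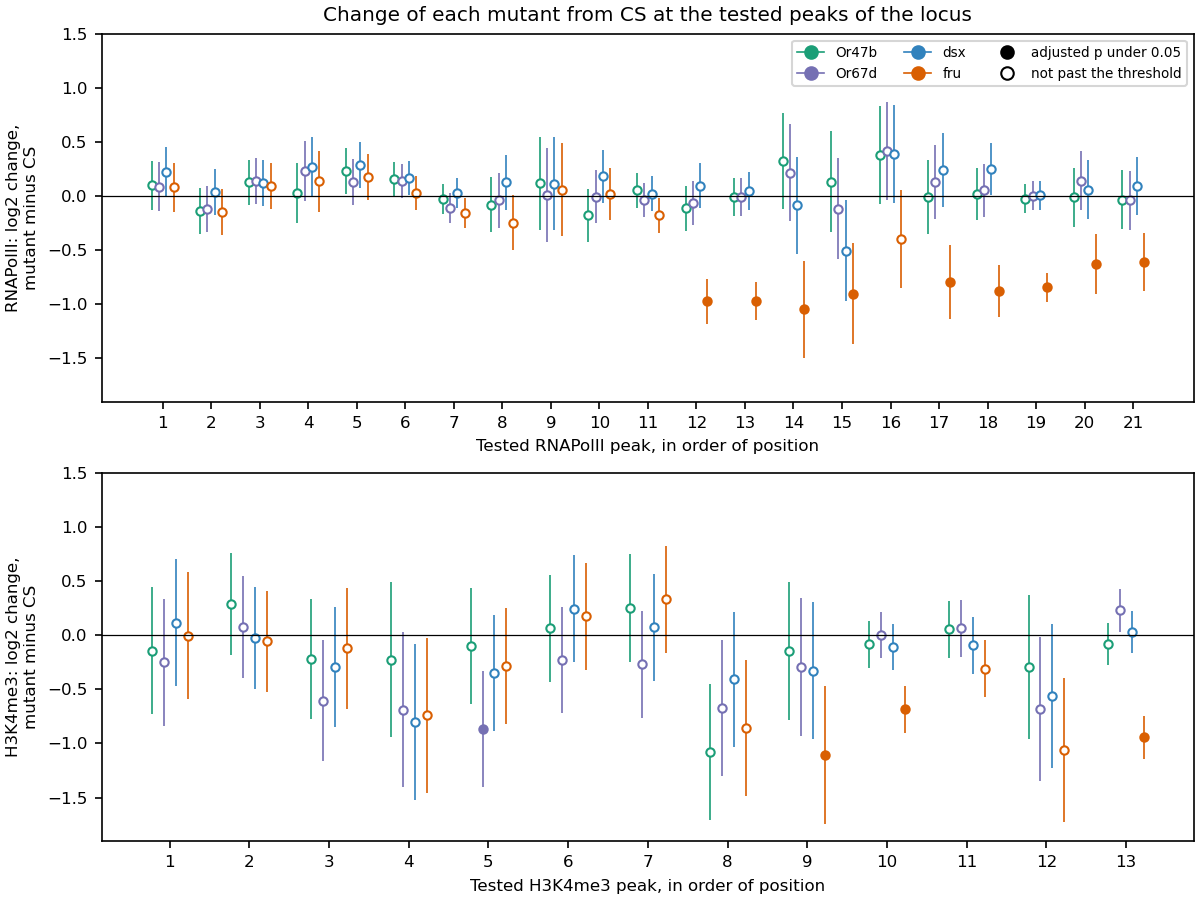
Log2 change of each of the 4 mutants minus CS at the 21 tested RNAPolII and 13 tested H3K4me3 peaks, in order along the chromosome, with 95% intervals; filled points passed the test. From the RNAPolII peak after the first 11 on, the fru points lie between -1.05 and -0.39, and no point of Or47b, Or67d or dsx passed.

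No peak of the locus passed the threshold for housing. In SH minus GH within each of the 5 genotypes, limma called 0 of 105 RNAPolII tests and 0 of 65 H3K4me3 tests, with 4 and 3 unadjusted p under 0.05. Over all peaks 0.0% passed in each of these comparisons, apart from Or47b with H3K4me3, where 0.0345% did. In the tests of whether the housing effect of a mutant differed from that of CS, limma called 0 of 84 and 0 of 52, with 1 and 2 unadjusted p under 0.05, and 0.0% passed over all peaks. The edgeR and DESeq2 tests called none in either set.

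At the upper end of fru, RNAPolII signal was 1092 in CS GH and 1151 in CS SH, and 505 ± 18.2 in fru GH and 571 ± 110 in fru SH (means, n = 3). H3K4me3 there was 299 ± 55.4 and 308 ± 26.2 in CS, and 169 ± 10.3 and 210 ± 43.9 in fru. The fru means lay below the CS means in both housings with both antibodies. The lowest unadjusted p of the fru housing comparison with RNAPolII was at CG7691, where fru GH libraries had 27.7, 33.1 and 31.5 and fru SH libraries 57.4, 47.1 and 39.3. In CS the means were 69.8 ± 7.94 in GH and 72.4 ± 7.63 in SH. The fru SH minus GH change of 0.61 (95% interval 0.27 to 0.95, unadjusted p = 0.000986) had an adjusted p of 1 over all peaks in limma, and so did its difference from that of CS, 0.56.

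The strongest peaks over other genes listed under sex determination, some of which act on the splicing of fru and dsx, were not called. Each listed gene was judged by 1 peak per antibody, that of highest mean. For dsx this was 1 of 5 H3K4me3 peaks and 1 of 14 RNAPolII peaks, and further peaks of a gene were not examined. Of 11 listed genes (Sxl, tra, tra2, dsx, ix, her, vir, fl(2)d, snf, dsf and retn), all 11 had a tested H3K4me3 peak and 7 a tested RNAPolII peak, and limma called none in fru minus CS. The median log2 change was 0.14 (range -0.07 to 0.27) with H3K4me3 and -0.06 (range -0.27 to 0.16) with RNAPolII. The strongest H3K4me3 peak over dsx itself had a change of 0.24 (adjusted p = 0.588). Of 5 genes listed as partners or targets of Fruitless proteins (among them the cofactor gene bon and the target Lgr3), 4 had a tested H3K4me3 peak and 3 a tested RNAPolII peak, none was called, and the medians were 0.03 (range -0.10 to 0.16) and -0.04 (range -0.13 to -0.02). Of all tested peaks, 0.944% with H3K4me3 and 0.484% with RNAPolII were called lower in fru minus CS. In lists this short, no calls lies near those shares and is no result about the listed genes.

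Peaks elsewhere in the genome whose signal across the 30 libraries was most like that of the upper end of fru were named by Pearson correlation, as a description. For H3K4me3 the 5 nearest lay over fabp and sea (0.838), CG6583 and crok (0.796), inaE (0.789), asRNA:CR45281 and Not1 (0.788), and CG16753 (0.778). For RNAPolII they lay over Cip4 (0.897), gpp (0.892), Dpp10 (0.882), no gene on the X chromosome (0.8725) and Nlg3 (0.871). These libraries share depth and scaling, and those of fru are among the 30.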

How the data were processed

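The submitters' processing notes name Trim Galore, Bowtie2, ChIPseeker, MACS2 and DESeq2, with neither version nor role; no source used here gives the genome build or read counter. The deposited tables hold signal per peak on a peak set common to all libraries of an antibody: as the values show, the authors scaled read numbers by a constant for each library. Columns were joined to samples through the library name in each description. Whole reads were recovered (tolerance 0.01 reads). In 6 libraries the step was less sure, and they were left out of the edgeR 4.0.16 and DESeq2 1.42.0 tests only. With H3K4me3 these were fru GH 1, fru SH 1, CS GH 2 and Or47b SH 2, and with RNAPolII CS SH 2 and Or67d SH 3. Those tests therefore rest on fewer libraries than limma.

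Each antibody was fitted on its own with limma 3.58.1 in R 4.3.3 (10 group means from 30 libraries, eBayes with trend). Peaks with a mean of at least 10 (14513 H3K4me3, 21076 RNAPolII) were fitted as log2 of the value plus 1, the pseudocount. Fold changes are on that scale and understate those of low peaks. Adjusted p-values are Benjamini-Hochberg over all peaks of a comparison, two-sided, threshold 0.05; 14 comparisons were made per antibody. The test was checked on simulated data. Peaks were named after the genes they overlap in RefSeq's table of assembly Release 6 plus ISO1 MT. Named are the peaks called in any comparison, the strongest peak over each gene, the peaks at the edges of a called run, the 5 peaks most similar to the upper end of fru, and others needed for a count; the remaining peaks and listed genes are given by ranges and counts. Replicate numbers were taken to pair 2 groups where all 3 same-numbered pairs correlated over 0.1 in their deviations from group means. That held for 1 of 13 pairs of groups with H3K4me3, fru GH with fru SH (0.125 to 0.317), where the fit with the replicate block, like that without, called no peak of the window, and for 0 of 13 with RNAPolII. The window, lists and tests were chosen with earlier results of these data known. A planned description of promoter sequence was not done, since no sequence was used here. No library pair held identical values.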

Additional observations from a re-analysis of the deposited data

Results flagged for a closer look

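Among 24 groups of 6 libraries checked for a library far from the others (CS and fru at the called peaks), 2 were picked out, and chance alone picks out about 1 in 20. For H3K4me3 at 3R:18517537-18517981 over fru, fru GH 1 had a value of 12.5 while the other fru libraries lay between 4.25 and 6.45. For RNAPolII at the upper end of fru, 3R:18545132-18547416, fru SH 2 had 694 while the other fru libraries lay between 479 and 540. Both libraries were the highest of their group, nearest to CS.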

How the results depend on the processing

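No called change in fru minus CS changed direction. Over all alternatives, including those that left out 1 library, the count of fallen peaks in fru minus CS was 7 to 9 with RNAPolII and 2 to 5 with H3K4me3; for fru minus the other genotypes it was 8 to 10 and 2 to 5. For fru minus CS with H3K4me3, scaling to the surrounding peaks gave 5, adding the narrow peak (adjusted p = 0.0472) and 3R:18571294-18571570 (adjusted p = 0.0387), and quantile normalization gave 5 for fru minus the others. Or47b minus CS with H3K4me3 gave 1 under the replicate block and 0 to 1 without 1 library (3R:18480747-18481073, called without Or47b SH 2). Or67d minus CS with H3K4me3 gave 0 with quantile normalization, 0 with each library's spread as covariate, 2 under the replicate block and 0 to 3 without 1 library (0 without Or67d SH 2, 3 without Or67d SH 1). With RNAPolII, the spread covariate gave 1 higher peak, the upper end of fru, in Or47b, Or67d and dsx each (adjusted p = 0.00317, 0.000102 and 0.000634); in dsx this turned an uncalled change of -0.09 into 0.40. In dsx, fits with only the compared libraries and without the 3 libraries highest at the upper end of fru gave 1, the narrow peak (adjusted p = 0.000304 and 0.00262). Neighbour steps numbered 4 with H3K4me3 peaks of mean 50 or more, 0 to 1 without 1 library (1 without fru GH 3), and 0 with RNAPolII when only the compared libraries were fitted. The cause of these shifts was not tested. Same-numbered libraries of a mutant and CS did not meet the rule for pairing. With H3K4me3 for fru and CS, their correlations were 0.036 to 0.313 in GH and -0.098 to 0.125 in SH. The means were 0.189 and 0.051, against -0.094 and -0.026 for libraries of different numbers. Whether a number marks a shared batch was not tested. The CS libraries bear other replicate numbers in their library names than in their titles, which were used here, so which CS library is the same-numbered one is not settled. The block also added 3R:18571294-18571570 in fru minus CS, the CG7694 and fray peak, higher, in Or67d minus CS, and the narrow peak in fru minus the others (adjusted p = 0.0378), all with H3K4me3, and changed no other call with H3K4me3 or RNAPolII. Weak H3K4me3 peaks, with values near 20, limit what could be detected there.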
